A study of Mus musculus with 57 samples.

Results

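The immediate early genes, which neurons switch on within minutes of being excited, were followed as Fos, Fosb, Junb, Egr1, Egr2, Egr4, Arc, Nr4a1, Npas4 and Ier2 in 57 RNA-seq libraries of mouse prefrontal cortex. They were taken by symbol as 10 of the 51456 gene identifiers in the deposited table. The mice were of the C57BL/6N strain and were either wild type (WT, 27 libraries) or heterozygous for Shank2 (HT, 30 libraries), the gene of a scaffold protein of the postsynaptic density. From postnatal day 3 to 24 they received fluoxetine, lithium or vehicle in the milk of the mother, and the cortex was taken on postnatal day 25 from males and females. The 6 arms of genotype and drug held 10 HT vehicle, 10 HT fluoxetine, 10 HT lithium, 8 WT vehicle, 10 WT fluoxetine and 9 WT lithium libraries. Split by sex they gave 12 groups, 9 of 5 libraries and 3 of 4 (WT vehicle females, WT vehicle males and WT lithium females). The nature of the Shank2 allele, the dose that reached each pup, the litter of each mouse and the time of day of dissection are not stated in these sources. Fluoxetine blocks the reuptake of serotonin, and lithium is a mood stabilizer that inhibits the kinase GSK3 among other enzymes.

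The values are the authors' normalized estimated counts, called normalized counts here, and their totals ran from 30.38 to 33.23 M (M, mega) per library. Shank2 itself had 3877 to 5006 normalized counts in HT libraries and 6762 to 11791 in WT libraries, so that the genotypes did not overlap. WT vehicle male 2, which had the lowest Shank2 value of its genotype, also stood apart from its group, and results that rest on it are given without it. The 10 markers of cortical excitatory neurons used as a check of the tissue summed to between 180644 and 256820 normalized counts in every library. Neighbouring tissue varied more: 12 markers of striatal projection neurons summed to 10164 to 45126, and 7 markers of olfactory bulb to 852 to 19370. No marker of any list was at 0 in all libraries. The labels name no litter, so p-values measure the spread between these libraries only.

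Immediate early genes need no new protein to be transcribed. Calcium entry through synaptic receptors and channels activates CREB, SRF and MEF2 factors that already sit on their promoters, and the RNA appears and decays quickly. The level of such a gene in a tissue sample therefore reads recent activity of its cells as well as lasting differences. Fos, Fosb and Junb are subunits of the AP-1 transcription factor. Egr1, Egr2 and Egr4 are zinc finger transcription factors, Nr4a1 is an orphan nuclear receptor, and Npas4 is a neuronal basic helix-loop-helix factor induced by calcium. Arc is a postsynaptic protein that takes part in the removal of AMPA receptors, and Ier2 is a small nuclear protein.

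The promoters of 4 members are shown because these genes moved together between libraries and because the letters of the CREB half-site, TGACG, were found in each. They are the 250 bases before the transcription start in RefSeq's annotation of GRCm38.p6, read 5′ to 3′ on the strand of the gene. Capitals mark TGACG, its reverse complement CGTCA and, in Egr2, a CArG box, the site class of serum response factor.
Fos, chr12:85473640-85473889, plus strand: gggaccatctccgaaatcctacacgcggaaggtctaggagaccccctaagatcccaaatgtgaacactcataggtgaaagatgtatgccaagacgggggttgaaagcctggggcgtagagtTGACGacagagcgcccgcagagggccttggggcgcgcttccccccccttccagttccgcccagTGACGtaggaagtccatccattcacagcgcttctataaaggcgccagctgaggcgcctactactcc
Junb, chr8:84978749-84978998, minus strand: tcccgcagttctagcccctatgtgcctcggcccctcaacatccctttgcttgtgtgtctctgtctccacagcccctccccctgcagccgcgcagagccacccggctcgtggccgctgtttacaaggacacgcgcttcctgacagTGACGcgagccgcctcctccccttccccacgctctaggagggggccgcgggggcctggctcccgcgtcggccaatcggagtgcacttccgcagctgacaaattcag
Nr4a1, chr15:101266596-101266845, plus strand: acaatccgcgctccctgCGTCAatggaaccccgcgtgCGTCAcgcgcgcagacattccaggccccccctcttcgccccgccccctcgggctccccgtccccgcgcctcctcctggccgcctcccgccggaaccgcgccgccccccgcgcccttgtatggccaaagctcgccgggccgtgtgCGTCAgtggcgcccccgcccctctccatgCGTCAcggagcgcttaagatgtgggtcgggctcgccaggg
Egr2, chr10:67537619-67537868, plus strand, 1 of 5 windows listed for the gene: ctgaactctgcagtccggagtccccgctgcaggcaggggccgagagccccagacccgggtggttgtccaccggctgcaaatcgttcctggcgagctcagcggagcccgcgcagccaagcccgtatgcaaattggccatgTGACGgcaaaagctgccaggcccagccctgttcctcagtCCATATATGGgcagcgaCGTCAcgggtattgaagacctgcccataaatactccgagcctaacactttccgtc

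Promoter windows were found for 7 of the 10 members, all except Arc, Egr1 and Ier2. TGACG, searched on both strands, was in at least 1 window of 7 of those 7 genes and in 19.8% of 27025 genes. Counted back from the start, its first base lay at -129 and -66 in Fos, at -106 in Junb, at -111 and -55 in the printed window of Egr2, and at -233, -213, -69 and -40 in Nr4a1. Fosb held it at -60, Egr4 at -177 and -109, and Npas4 at -179 and -169. The palindromic full site TGACGTCA, which contains TGACG on both strands, was in none of the 7 and in 1.77% of all genes. A CArG box was in Egr2 alone, against 1.62% of all genes, the AP-1 site TGANTCA was in none, against 7.82%, and the EGR site GCGNGGGCG was in Fosb and Nr4a1, against 5.33%. These matches describe letters in the windows and do not show that a factor bound there. Sites outside the windows were not searched, so a site missing here may lie elsewhere near the gene.

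All 10 members passed the filter on low values, a mean of at least 10 normalized counts over the 57 libraries, which left 16659 genes to test. Per kilobase of the longest coding transcript, mean levels were highest for Egr1 (1659 normalized counts per kb), Arc (1405), Nr4a1 (913) and Junb (817). Egr4 (469) and Fos (442) followed, and Npas4 (188), Fosb (143), Ier2 (130) and Egr2 (123) were lowest. The genes lie, in GRCm38 coordinates, at chr12:85473890-85477273 (Fos, plus strand), chr7:19302696-19310051 (Fosb, minus), chr8:84974484-84978718 (Junb, minus), chr18:34859823-34864984 (Egr1, plus) and chr10:67535475-67542188 (Egr2, plus). Egr4 lies at chr6:85511121-85513589 (minus), Arc at chr15:74669083-74672570 (minus), Nr4a1 at chr15:101254269-101274795 (plus), Npas4 at chr19:4984355-4990316 (minus) and Ier2 at chr8:84661331-84662852 (minus). Junb overlaps Prdx2, which is read from the opposite strand. The library kit was a stranded one, but whether strand was used in counting is not stated. It is therefore not known whether reads from the stretch that these 2 genes share were told apart.

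Single libraries differed widely. Egr2 ran from 71.8 to 749 normalized counts with a median of 362, a 10.4-fold range and the widest of the 10. Arc ran from 1171 through a median of 4438 to 7764, a 6.63-fold range. Egr4 had the narrowest range, from 609 through 1021 to 1549, or 2.54-fold. The others lay between: Fos at 317, 896 and 2400 (lowest, median, highest), Fosb at 333, 520 and 1324, Junb at 612, 1514 and 2417, and Egr1 at 3506, 7137 and 12119. Nr4a1 lay at 1092, 2286 and 4907, Npas4 at 328, 640 and 1766, and Ier2 at 118, 189 and 440.

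**Figure D1:**
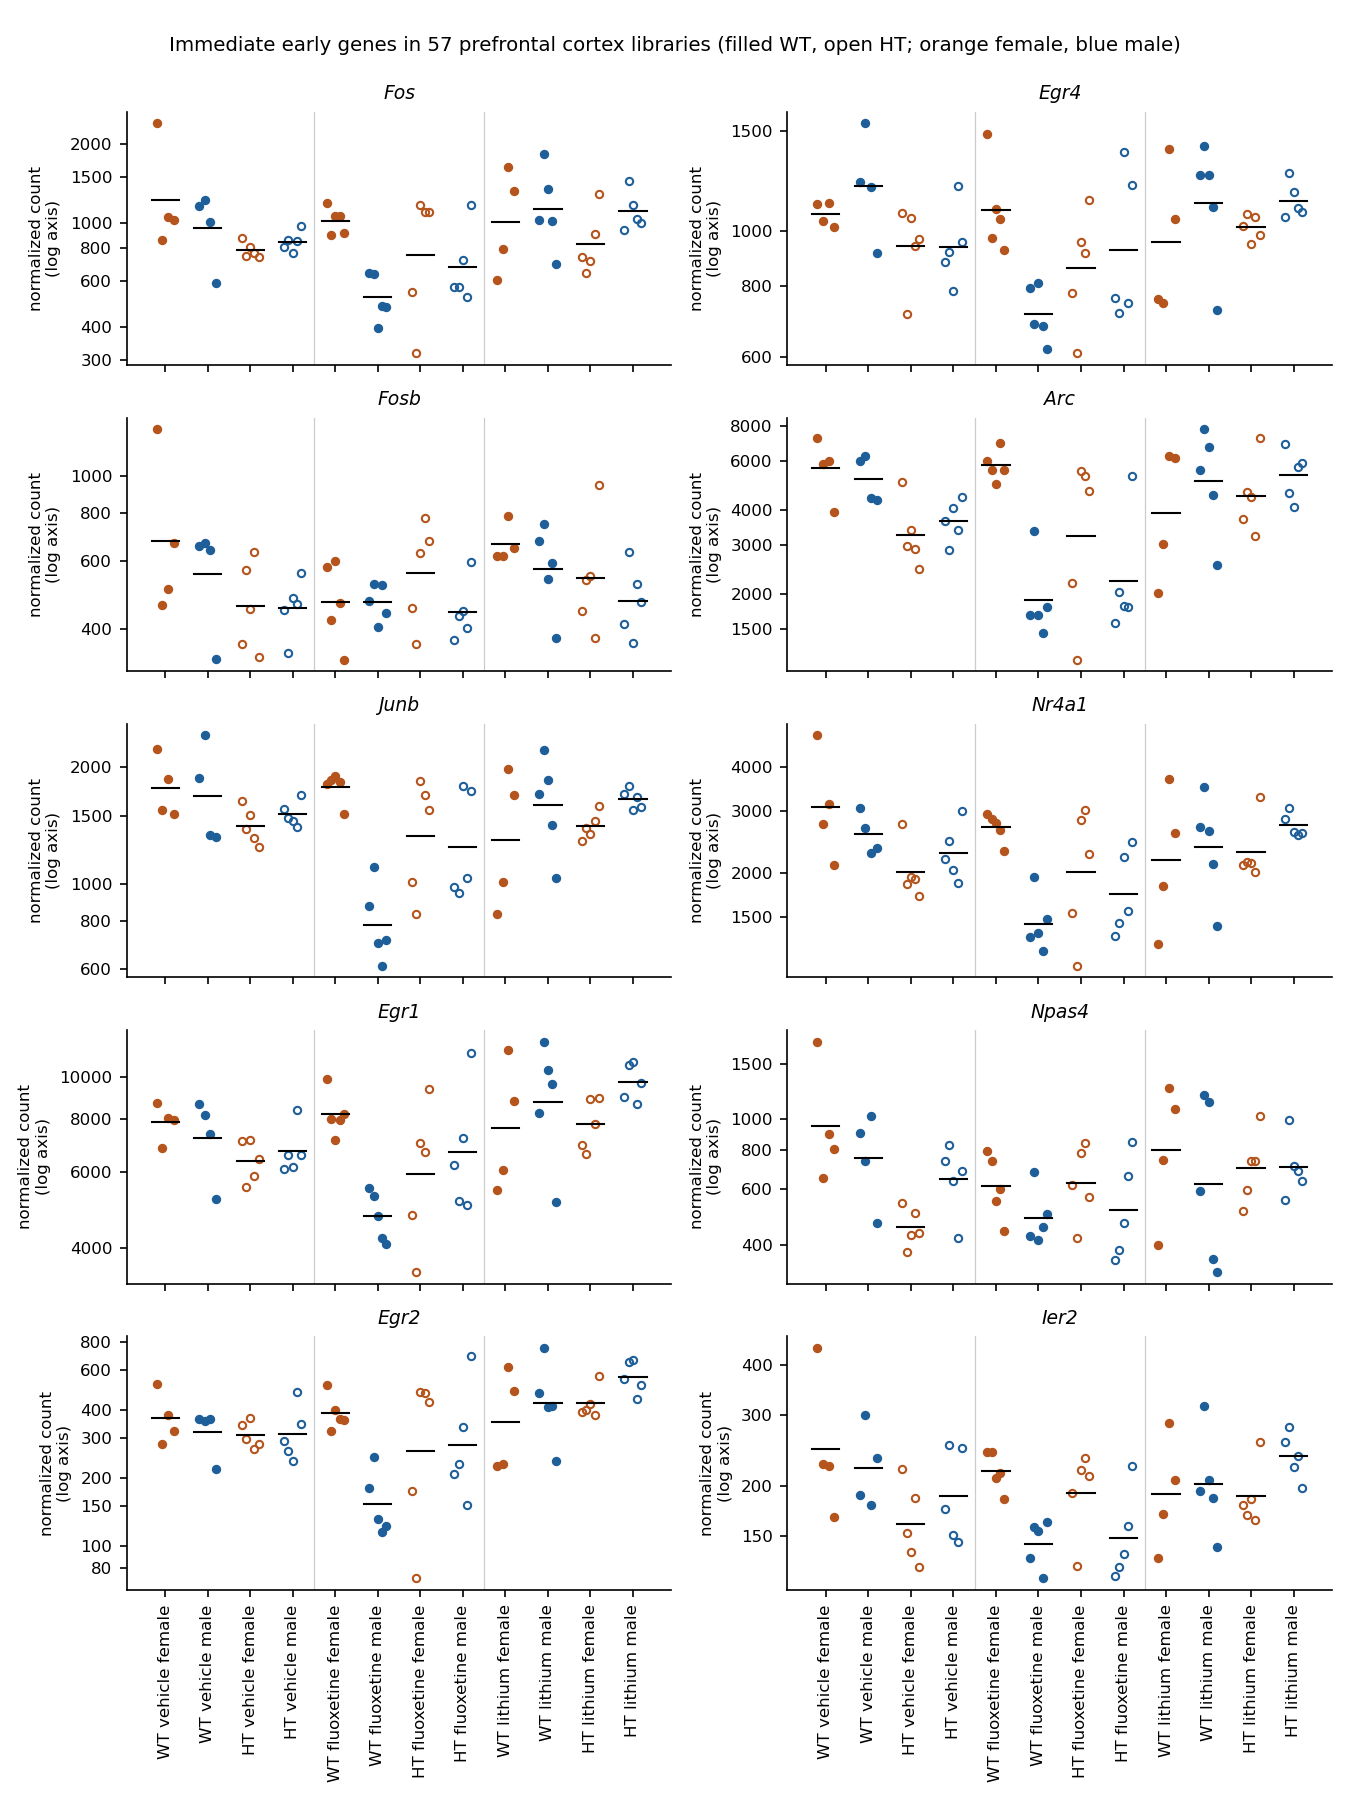
Normalized counts of the 10 immediate early genes in each of 57 libraries, on log axes, by genotype (filled WT, open HT), sex (orange female, blue male) and drug; bars are group means of log2(value + 1). WT fluoxetine males are low for Junb (612 to 1102), all below the WT fluoxetine females (1510 to 1897), while HT fluoxetine females run from 836 to 1846.

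Across the 6 arms the order of Arc, by mean ± SD, was WT vehicle (5500 ± 1139 normalized counts, n = 8), HT lithium (5050 ± 1336, n = 10), WT lithium (4942 ± 2019, n = 9), WT fluoxetine (3903 ± 2129, n = 10), HT vehicle (3522 ± 792, n = 10) and HT fluoxetine (3139 ± 1802, n = 10). Each neighbour in that order differed from the next by less than the SD of either arm. For Egr2 the order was HT lithium (497 ± 106), WT lithium (427 ± 181), WT vehicle (351 ± 87.4), HT fluoxetine (325 ± 192), HT vehicle (317 ± 69.7) and WT fluoxetine (275 ± 137), again with every step between neighbours under the SD of either arm. Npas4 was highest in WT vehicle (908 ± 387) and lowest in WT fluoxetine (561 ± 138), with HT vehicle (562 ± 155) next to the latter.

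Differences were tested with limma on log2(value + 1) in 1 fit of the 12 groups, adjusted over all 16659 genes and called at an adjusted p under 0.05. They are given as log2 differences with their standard errors. Comparisons between sexes within an arm, between treatments within a sex, and of such differences with each other were added after the values had been seen.

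Within WT mice given fluoxetine, 7 of the 10 early genes were called lower in males than in females: the AP-1 genes Fos and Junb, Egr1, Egr2 and Egr4, and Arc and Nr4a1. Of all genes tested 10.6% were called in this comparison and 5.05% were called lower.

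Junb had 873, 1102, 701, 612 and 713 normalized counts in the 5 WT fluoxetine males and 1807, 1857, 1897, 1831 and 1510 in the 5 females. Every male lay below every female, and the log2 difference was -1.18 ± 0.21 (adjusted p = 0.000552, limma). Fos, its usual partner in AP-1, had 645, 640, 395, 482 and 478 in males and 1188, 896, 1064, 1060 and 913 in females, again without overlap (log2 difference -0.97 ± 0.29, limma adjusted p = 0.0233). Fosb, the third AP-1 subunit, had 474, 523, 404, 520 and 439 in males and 580, 423, 599, 468 and 333 in females. The sexes overlapped fully, and the difference was -0.00 ± 0.24 with a 95% interval from -0.48 to 0.47.

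Arc showed the largest difference of the 10. It stood at 1684, 3357, 1696, 1460 and 1797 normalized counts in males against 5980, 5569, 4962, 6956 and 5563 in females. Its highest male, male 2, was still below the lowest female, and the geometric mean of males was 0.330 of that of females (log2 difference -1.60 ± 0.34, limma adjusted p = 0.00305). Nr4a1 had 1316, 1949, 1351, 1203 and 1480 in males and 2949, 2841, 2771, 2652 and 2316 in females, with male 2 again the highest male and no overlap (-0.91 ± 0.24, limma adjusted p = 0.0128).

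Among the EGR factors, Egr2 had 181, 247, 131, 115 and 122 normalized counts in males and 514, 320, 400, 363 and 359 in females (log2 difference -1.34 ± 0.36, limma adjusted p = 0.0134). Egr1 had 5525, 5279, 4746, 4202 and 4084 in males and 9903, 7995, 7137, 7935 and 8220 in females (-0.79 ± 0.21, limma adjusted p = 0.0116). Egr4 had 795, 685, 809, 680 and 621 in males and 1481, 973, 1094, 1048 and 925 in females (-0.61 ± 0.17, limma adjusted p = 0.0181). None of the 3 overlapped between the sexes.

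Ier2 had 132, 157, 154, 118 and 162 normalized counts in males and 243, 243, 209, 215 and 185 in females. It did not overlap either, but its difference of -0.60 ± 0.21 missed the threshold (limma adjusted p = 0.0583). Npas4 had 428, 679, 413, 454 and 501 in males and 796, 740, 551, 602 and 442 in females, which overlapped (-0.33 ± 0.31, limma adjusted p = 0.536). In all, 8 of the 10 members had every male below every female, where 8.06% of all genes tested did.

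Libraries of the 2 sexes in this arm also differed in tissue markers. All 7 olfactory bulb markers were called higher in males (median log2 difference 3.13; summed level 6326 to 15661 against 990 to 2411 in females). Of 12 striatal markers 6 were called lower in males (median -1.08; 11366 to 13476 against 11944 to 36124), and 2 of 10 cortical excitatory markers were lower (median -0.24). With each library's mean standardized level of the olfactory markers in the fit 5 members were called: Egr1, Egr2 and Egr4 lost their call (limma adjusted p = 0.114, 0.0641 and 0.140) and Ier2 gained one (-0.93, limma adjusted p = 0.0488). With the striatal level in the fit 3 were called. With both levels the difference of Arc was -1.71 and that of Junb -1.33, but only Junb of the 10 was called (limma adjusted p = 0.00699). Differences were slightly smaller in size than without the levels for Egr1 (-0.74 in place of -0.79) and Egr4 (-0.60 in place of -0.61). For the other members they were larger. The olfactory level did not overlap between the sexes of this arm, so its part and that of sex cannot be told apart in these fits. Fewer cells of a type and less RNA per cell cannot be told apart in such bulk samples.

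No member was called between males and females in the other 5 arms, nor had any an unadjusted p under 0.05 there. Of all genes 0.102% were called in WT vehicle, 0.054% in WT lithium, 0.06% in HT vehicle, 0.072% in HT fluoxetine and 0.066% in HT lithium mice, and in the same order 17.8%, 2.03%, 2.55%, 9.68% and 8.68% had an unadjusted p under 0.05. In HT fluoxetine mice the differences ran from -0.53 (Arc) to 0.17 (Egr1). The test of the sex difference in WT against that in HT fluoxetine mice called 1 member, Junb (-1.09 ± 0.29, limma adjusted p = 0.0445), where 1.79% of all genes were called and 0.804% lower. For Egr1 that difference was -0.96 (limma adjusted p = 0.0598). The call of Junb was lost when any of 15 of the 20 libraries was left out, and up to 3 members were called without HT fluoxetine female 5.

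**Figure D2:**
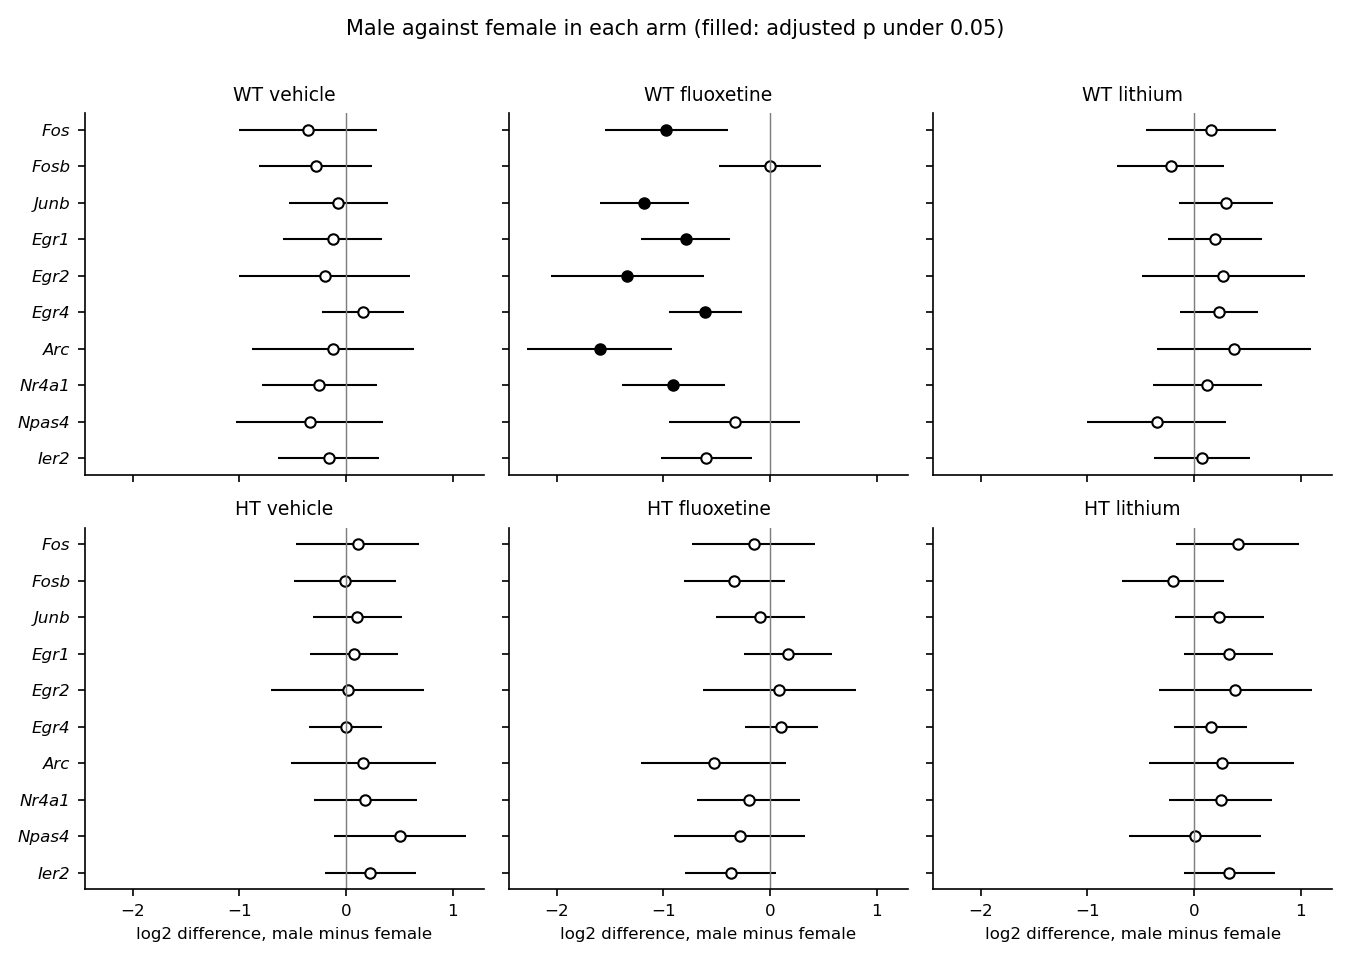
Log2 difference, male minus female, of the 10 genes in each of the 6 arms, with 95% intervals from limma; filled points have an adjusted p under 0.05. Only the WT fluoxetine panel has filled points, 7 of 10, from -0.61 (Egr4) to -1.60 (Arc).

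Measured against vehicle in males of both genotypes, Junb (-0.69), Arc (-1.07) and Nr4a1 (-0.61) were called lower under fluoxetine, 3 of 10 members, where 3.22% of all genes were called and 1.9% lower (limma adjusted p = 0.00686, 0.0106 and 0.0383). In females 0 of 10 were called, against 0.246% of all genes, and none had an unadjusted p under 0.05, where 13.1% of all genes did. The 3 in males became 1 when WT vehicle male 2 was left out, 5 without WT vehicle male 4 and 6 without HT fluoxetine male 5. Within WT males, Junb (-1.10 ± 0.22), Egr4 (-0.75 ± 0.18) and Arc (-1.44 ± 0.36) were called lower (limma adjusted p = 0.0109, 0.0232 and 0.026), where 2.83% of all genes were called and 1.27% lower.

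Arc had 5971, 6238, 4433 and 4327 normalized counts in the 4 WT vehicle males and Junb 1881, 2417, 1338 and 1316, both above every WT fluoxetine male. Egr4 had 1220, 1549, 1194 and 917, also without overlap. For 5 of the 10 members, Junb, Egr4, Arc, Nr4a1 and Ier2, every WT fluoxetine male lay below every WT vehicle male, as did 2.61% of all genes tested. In WT males the count of called members fell to 0 without WT vehicle male 2 and to 1 without WT fluoxetine male 4 or 5, and it rose to 5 when WT vehicle male 4 was left out. The 7 olfactory bulb markers had a median difference of 1.90 in the same comparison with none called, and the part of tissue makeup in it was not tested beyond the fits with marker levels, which called 5 members with the olfactory level and 1 with both levels.

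WT females gave 0 of 10 called under fluoxetine, where 0.018% of all genes were called, with 1 member and 15.5% of all genes at an unadjusted p under 0.05. The difference between the fluoxetine effect of WT males and that of WT females was called for Junb alone (-1.11 ± 0.31, limma adjusted p = 0.044), among 2.53% of all genes called and 0.894% lower, and was lost when any of 14 of the 18 libraries was left out. In HT mice fluoxetine called none of the 10 over both sexes, where 0.33% of all genes were called, and none at an unadjusted p under 0.05, where 14.6% were. Arc there was -0.36 with an interval from -0.84 to 0.12.

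Over both sexes and genotypes, fluoxetine left all 10 members with a negative difference and a median of -0.32, but called Junb alone (-0.37 ± 0.11, limma adjusted p = 0.0351), where 4.75% of all genes were called and 3.07% lower. At an unadjusted p under 0.05 there were 6 members and 20.2% of all genes. The call was lost without any of 10 of the 38 libraries, WT vehicle male 2 among them. Arc stood at -0.53 ± 0.17 (limma adjusted p = 0.0652). In WT mice alone the median was -0.50, all 10 were negative and 8 of 10 had an unadjusted p under 0.05, where 15.2% of all genes did, yet none was called after adjustment, where 0.84% of all genes were. The fluoxetine effect did not differ by the test between the genotypes for any member, nor for any other gene (0% called); 2 members had an unadjusted p under 0.05, where 7.71% of all genes did, and Npas4 had the largest difference, HT minus WT, of 0.70 with an interval from 0.07 to 1.34. Blood cell markers moved in the comparison over both genotypes, with 4 of 5 called lower under fluoxetine (median -0.58), and the part of blood content in the members' values was not tested.

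Between the 2 drugs, over both genotypes and sexes, 4 of 10 members were called higher under lithium, Fos (0.49 ± 0.15), Egr1 (0.43 ± 0.10), Egr2 (0.76 ± 0.18) and Arc (0.64 ± 0.17), with limma adjusted p of 0.041, 0.011, 0.00916 and 0.0203. The call of Fos held in 18 of 39 omissions of a library and was lost with no filter, with 6 arms and a sex term, and with the length trend described below, where Fos was 0.36 (limma adjusted p = 0.0678); the other 3 calls held throughout. Of all genes tested 4.66% were called and 2.41% were called higher. All 10 members had a positive difference, with a median of 0.32 against -0.00 over all genes tested. Within males 8 of 10 were called higher, among 9.89% of all genes called and 4.72% called higher.

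In the 10 males of each drug, Arc had a lowest, median and highest value of 1460, 1804 and 5293 normalized counts under fluoxetine and 2554, 5628 and 7764 under lithium. HT fluoxetine male 5 was the only fluoxetine male above 3357, and the log2 difference was 1.33 ± 0.24 (limma adjusted p = 0.000428). Egr2 had 115, 195 and 689 under fluoxetine and 237, 493 and 749 under lithium, with HT fluoxetine male 5 again the highest of its drug (1.24 ± 0.25, limma adjusted p = 0.0017).

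Fos had 395, 568 and 1172 normalized counts in fluoxetine males and 697, 1029 and 1828 in lithium males (log2 difference 0.91 ± 0.20, limma adjusted p = 0.00368). Within WT males every fluoxetine library of Fos lay below every lithium library, as 4.33% of all genes did. Junb had 612, 964 and 1793 against 1035, 1685 and 2212 (0.72 ± 0.15, limma adjusted p = 0.0017). Egr1 had 4084, 5209 and 11426 against 5106, 9675 and 12119 (0.71, limma adjusted p = 0.0017).

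Nr4a1 (0.68 ± 0.17), Ier2 (0.58 ± 0.15) and Egr4 (0.47 ± 0.12) completed the 8, with limma adjusted p of 0.00804, 0.0103 and 0.01. In HT males, where WT values play no part, every fluoxetine library of Nr4a1 lay below every lithium library (1330, 1443, 2227, 1564 and 2446 against 2849, 3048, 2614, 2570 and 2590), as 1.78% of all genes did. Npas4 (0.41) and Fosb (0.19) were not called (limma adjusted p = 0.233 and 0.512). The count was 8 whichever of the male libraries of these drugs was left out.

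In females none of the 10 was called between lithium and fluoxetine, where 0.384% of all genes were called, and none had an unadjusted p under 0.05, where 12.2% of all genes did. Differences ran from -0.18 (Junb) to 0.28 (Egr2), and the interval of Arc ran from -0.54 to 0.45. The difference between the sexes was called for Junb (0.90 ± 0.21, limma adjusted p = 0.0249) and Arc (1.38 ± 0.34, limma adjusted p = 0.0303), 2 of 10 members, where 1.63% of all genes were called and 0.798% higher. It missed the threshold for Ier2 (0.69, limma adjusted p = 0.0767), Nr4a1 (0.74, 0.0937) and Fos (0.85, 0.107). The count of 2 was 0 without HT fluoxetine female 3 or WT lithium female 2, 1 without HT fluoxetine female 5, WT lithium female 1 or WT lithium male 3, 5 without HT fluoxetine male 5 and 6 without HT fluoxetine female 2.

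Markers of the olfactory bulb differed in these males too, with 7 of 7 called lower under lithium (median -1.97), while 0 of 12 striatal markers were called. With the olfactory level of each library in the fit 8 members were still called, Fosb (0.61, limma adjusted p = 0.0223) in place of Egr4 (limma adjusted p = 0.0603). With the striatal level or with both levels in the fit 8 were called as well, and Arc was 1.42 with both.

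**Figure D3:**
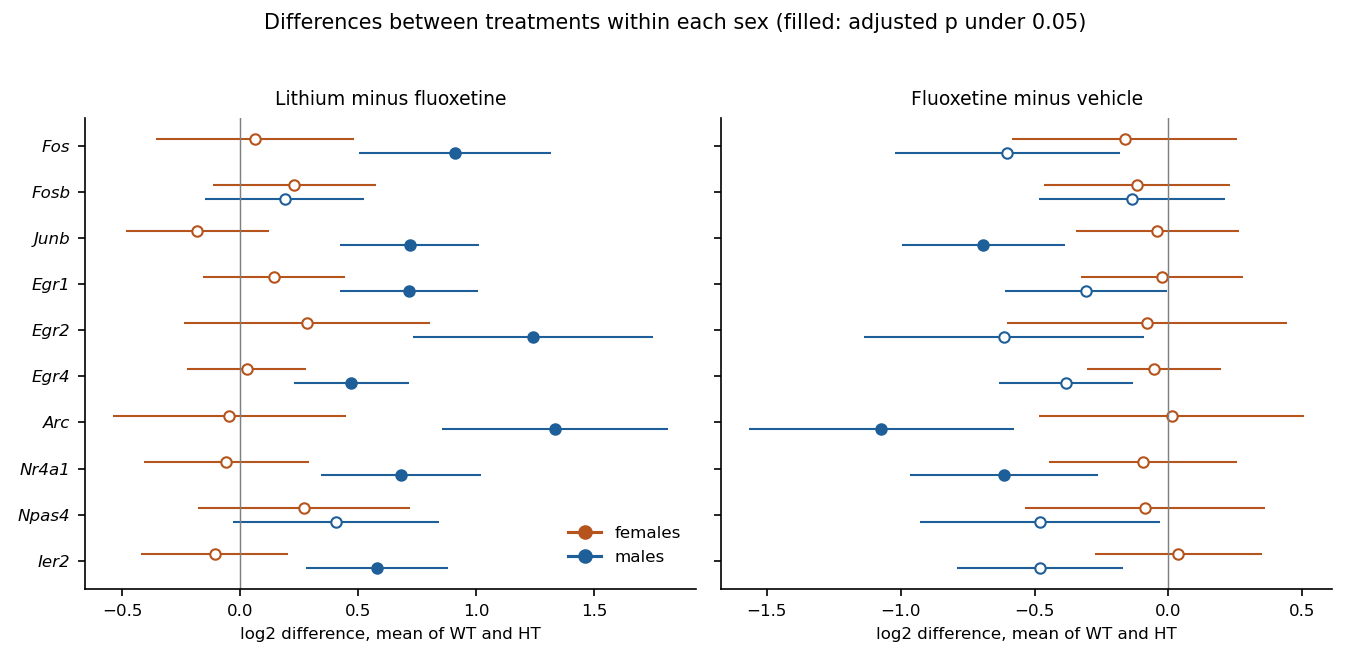
Log2 differences of the 10 genes between treatments, as the mean of WT and HT mice, in females (orange) and males (blue), with 95% intervals from limma; filled points have an adjusted p under 0.05. Male points for lithium minus fluoxetine are filled for 8 genes, up to 1.33 for Arc, while no female point is.

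Lithium against vehicle called no member in either genotype. In HT mice all 10 differences were positive with a median of 0.25, and Egr2 (0.65 ± 0.25), Arc (0.51 ± 0.24) and Egr1 (0.41 ± 0.15) were the largest. None was called (limma adjusted p = 0.234, 0.357 and 0.19), where 0.888% of all genes were called, and 3 had an unadjusted p under 0.05, where 12.8% of all genes did. The size and direction of these differences moved with the length trend of the libraries. This trend is Spearman's rho over genes between transcript length and a library's deviation from the mean of the others. What it reflects, such as RNA quality, was not tested. The trend ran from -0.137 to 0.0398 in HT vehicle libraries, where only female 5 and male 2 were positive. In HT lithium libraries it was -0.119 in female 1 and 0.0264 to 0.136 in the others. The trend thus differed between the arms, and its part and that of lithium cannot be told apart in this fit. With the trend in the fit Egr2 was 0.18, Arc 0.08 and Egr1 0.13, and 5 of 10 members were negative, Fos (-0.20), Junb (-0.16), Nr4a1 (-0.12), Fosb (-0.04) and Npas4 (-0.03). Egr1 did not overlap between HT lithium males (8984, 10667, 10852, 8649 and 9719 normalized counts) and HT vehicle males (6122, 6583, 6169, 8411 and 6573), as 1.76% of all genes did with higher values under lithium. Egr2 did not overlap between HT lithium females (391, 400, 423, 378 and 561) and HT vehicle females (342, 298, 368, 268 and 281), as 0.576% of all genes did.

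In WT mice lithium called 0 of 10 members although 8.53% of all genes were called, and no member had an unadjusted p under 0.05, where 23.8% of all genes did. Differences ran from -0.31 (Nr4a1) to 0.19 (Egr2). Over both genotypes 13.3% of all genes were called under lithium and again none of the 10, with Egr1 at 0.26 (limma adjusted p = 0.0963) and Egr2 at 0.42 (0.133), these 2 at an unadjusted p under 0.05 as 27.9% of all genes were. The lithium effect in HT minus that in WT was largest for Arc (0.78, interval 0.08 to 1.49), and no gene of the whole table was called in that test (0%). An unadjusted p under 0.05 was found for 3 members and for 7.31% of all genes.

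Between genotypes under vehicle, all 10 members were lower on average in HT mice, with a median of -0.40, but none was called, where 0.762% of all genes were called. For 6 of 10 the unadjusted p was under 0.05, where it was for 14.8% of all genes. Arc had a lowest, median and highest value of 2464, 3404 and 5031 normalized counts in 10 HT vehicle libraries and 3951, 5903 and 7244 in 8 WT vehicle libraries, which overlapped (-0.65 ± 0.25, limma adjusted p = 0.204). Npas4 had 379, 525 and 831 in HT and 470, 851 and 1766 in WT (-0.64 ± 0.23, limma adjusted p = 0.157).

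In females alone Npas4 had 545, 379, 431, 506 and 437 normalized counts in HT vehicle libraries and 1766, 652, 898 and 805 in WT vehicle libraries, without overlap, as 0.876% of all genes did with lower values in HT. That comparison called no member (Npas4 -1.07, limma adjusted p = 0.542) and 0.024% of all genes, and 6 members and 6.58% of all genes had an unadjusted p under 0.05. Striatal and olfactory bulb markers were on average lower in HT vehicle libraries too, with none of 12 and none of 7 called (medians -0.61 and -0.77).

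Under fluoxetine and under lithium the genotypes did not differ by the test for any member. Differences, HT minus WT, ran from -0.30 (Arc) to 0.16 (Egr2) under fluoxetine, where 0.222% of all genes were called, and from -0.29 (Fosb) to 0.33 (Egr2) under lithium, where 0.114% were. None of the 10 had an unadjusted p under 0.05 in either, against 10.5% and 7.75% of all genes. Over all treatments 3.74% of all genes were called between the genotypes and none of the 10, with 1 member and 18.9% of all genes at an unadjusted p under 0.05. Over all arms males and females differed for no member by either threshold, where 0.108% of all genes were called and 5.36% had an unadjusted p under 0.05.

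The spread between libraries of 1 group was large for these genes. Pooled over the 12 groups, the SD of log2(value + 1) ran from 0.280 (Egr4) to 0.573 (Egr2). Set beside the 1000 tested genes nearest in mean level, Arc had an SD of 0.536 against their median of 0.108, a ratio of 4.94, and exceeded 99.9% of them. Fos, Egr1, Nr4a1 and Npas4 had ratios of 3.55, 3.22, 3.52 and 3.51, and Egr2 of 3.40. Ier2 was nearest to genes of its level, with a ratio of 1.65, and exceeded 90.2% of them.

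Groups were not alike in spread. The median SD over the 10 members was 0.625 in WT lithium females, 0.524 and 0.469 in HT fluoxetine females and males, and 0.484 in WT lithium males. It was 0.175 in WT fluoxetine females, 0.221 and 0.244 in HT vehicle females and males, and 0.215 in HT lithium males. WT fluoxetine males (0.277), HT lithium females (0.275), WT vehicle males (0.348) and WT vehicle females (0.447) lay between. Medians over all tested genes ran from 0.116 to 0.224 in the same groups.

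The HT fluoxetine libraries show what this spread looks like. Arc had 2200, 1171, 5523, 5301 and 4661 normalized counts in the females and 1578, 2037, 1820, 1810 and 5293 in the males. Egr2 had 175, 71.8, 481, 473 and 434 in the females and 208, 231, 334, 151 and 689 in the males. Females 1 and 2 and males 1, 2 and 4 were low for both genes, and females 3, 4 and 5 and male 5 were high. The length trend moved the same way in the females: it was -0.0947 and -0.131 in females 1 and 2 and 0.0718, 0.117 and 0.0636 in females 3, 4 and 5. Among the males it was highest in male 5 (0.142) and between -0.0342 and 0.0572 in the others.

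WT lithium libraries also lay far apart. Arc had 2019, 3022, 6220 and 6122 normalized counts in females 1 to 4 and 5559, 7764, 6708, 4515 and 2554 in males 1 to 5, and Fos had 605, 791, 1627 and 1316 in the same females. The length trend was -0.0669 and -0.0556 in females 1 and 2 and 0.173 and 0.103 in females 3 and 4. Among the males it followed Arc only in part. Male 5 was lowest for both (trend -0.0022), but the trend was highest in male 3 (0.114) and 0.0502 in male 2, which had the highest Arc. Male 4 had a higher trend than males 1 and 2 but a lower Arc. In WT vehicle male 2 the length trend was the lowest of all libraries (-0.334), while its Junb was the highest of its group. With the trend in the fit the pooled SD of log2(value + 1) was lower for each member, for Arc 0.474 in place of 0.536, for Egr2 0.504 in place of 0.573 and for Fos 0.382 in place of 0.459. Members differed in which groups were narrow. In HT vehicle females Fos kept within 740 to 876 (SD 0.099, the lowest of the 10 there), but Arc ran from 2464 to 5031 (SD 0.388), and Fosb had an SD of 0.395 there against 0.166 in WT lithium females.

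The absolute deviations from the group means were compared between arms with limma, a test that made too many false calls in simulated data. In HT mice they were called larger under fluoxetine than under vehicle for 3 of 10 members, Fos, Junb and Egr2 (lowest limma adjusted p = 0.0153, Egr2), where 0.426% of all genes were called and 0.384% larger. Over both genotypes Egr2 alone was called larger under fluoxetine (limma adjusted p = 0.0428), where 6.65% of all genes were called and 0.306% larger. Under vehicle 1 of 10 members, Fos, was called smaller in HT than in WT mice (limma adjusted p = 0.021). Of all genes 13.3% were called and 13.1% smaller there, so the members' share was not above that of all genes. No member was called for HT against WT over all treatments (0.024% of all genes called), males against females (0.054%), lithium against vehicle (4.8%), lithium in HT (0.03%) or in WT mice (16.2%), or fluoxetine in WT mice (21.9%), with 2, 0, 1, 0, 4 and 3 members at an unadjusted p under 0.05. In the same order 11.4%, 9.02%, 20.4%, 7.74%, 29.8% and 34.9% of all genes were at that threshold. The count of 3 in HT mice was 0 without HT fluoxetine female 2 and 5 without HT fluoxetine male 1, 2 or 4. That of Fos under vehicle was 0 without WT vehicle female 1 or male 4 and 2 without WT vehicle female 4, and every call of spread was lost when deviations were taken from group medians or with the length trend in the fit.

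**Figure D4:**
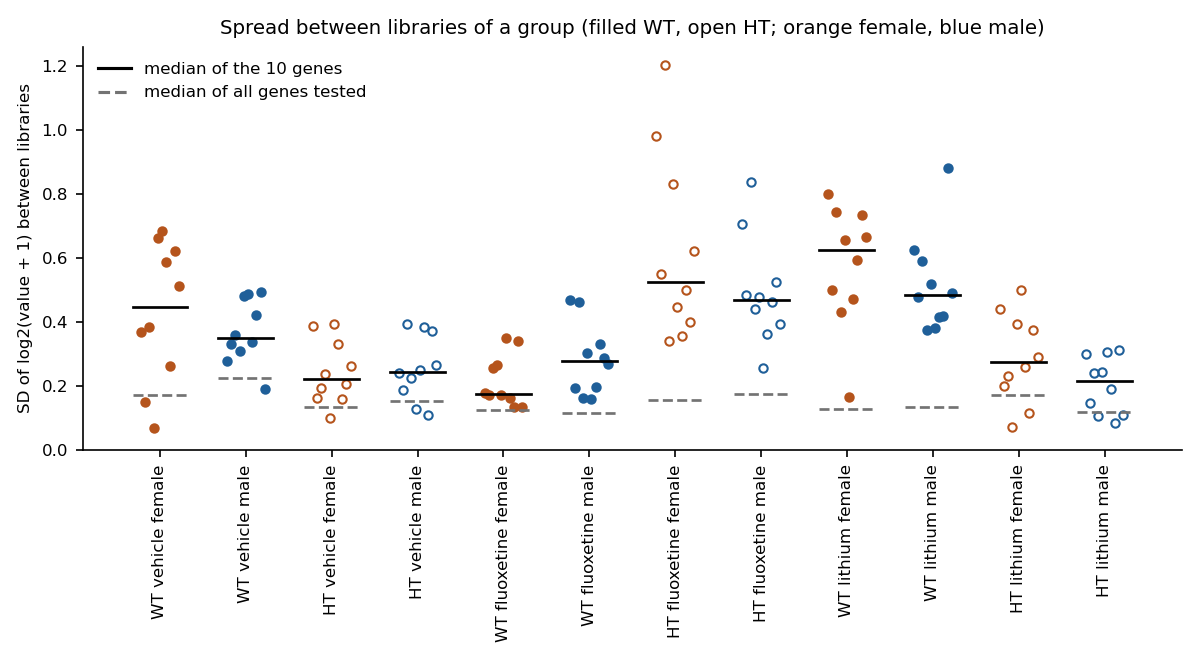
SD of log2(value + 1) between the libraries of each of the 12 groups, for the 10 genes (points) with the members' median (solid line) and the median over all tested genes (dashed line). The members' median ranges from 0.175 in WT fluoxetine females to 0.625 in WT lithium females, above the all-gene median of 0.116 to 0.224 in each group.

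A library that was low for 1 early gene was mostly low for the others. With group means subtracted, Pearson's r over the 57 libraries was positive for 45 of 45 pairs of members, with a median of 0.711, a lowest value of 0.417 (Fosb with Egr4) and a highest of 0.892 (Junb with Nr4a1). Spearman's rho ran from 0.404 to 0.897 with a median of 0.637. Permutation within groups gave a Benjamini-Hochberg adjusted p under 0.05 for all 45 pairs, at most 0.00249 for r and 0.00658 for rho. By r, 32 pairs reached 1e-05, the smallest unadjusted p that 100000 permutations can give. Pairs of other genes were not put through this test, so no share over all genes can be set beside these counts. Without the 2 libraries farthest from the median of the first gene of each pair, r ran from 0.416 to 0.876 with a median of 0.664. With the length trend of each library in the fit as well, the median r of the 45 pairs was 0.666.

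Fosb was the least alike, with a median r of 0.550 with the other 9, and Npas4 (0.640) and Egr4 (0.647) followed. Egr2 and Nr4a1 had the highest median, 0.799 each. By treatment the median r of the 45 pairs was 0.522 over 18 vehicle libraries, 0.754 over 20 fluoxetine libraries and 0.844 over 19 lithium libraries. It was 0.669 in HT and 0.766 in WT mice, and 0.773 in females and 0.668 in males. In the 10 HT vehicle libraries it was 0.212 and 35 of 45 pairs were positive, while in the 9 WT lithium libraries it was 0.926 and in the 10 HT fluoxetine libraries 0.853. The difference between these values was not tested, and the last 2 arms also had a wide spread.

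**Figure D5:**
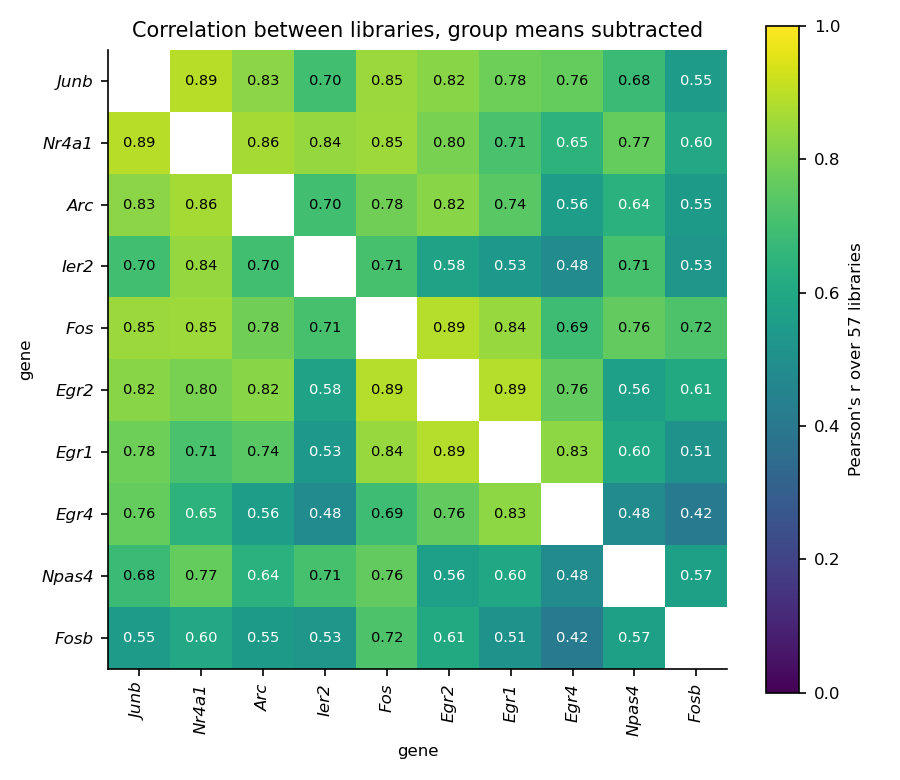
Pearson's r between the 10 genes over 57 libraries after subtracting group means of log2(value + 1). All 45 pairs are positive, from 0.417 (Fosb with Egr4) to 0.892 (Junb with Nr4a1), and the 3 lowest values are pairs of Egr4, with Fosb, Npas4 (0.483) and Ier2 (0.484).

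Other genes that rose and fell with them were sought over the same 57 libraries, by r with the mean of the 10 standardized members. The most alike were Dusp1 (r = 0.81), a phosphatase that switches off MAP kinases, and Midn (0.81), followed by Arl5b (0.76), Sik1 (0.74), a kinase induced by cAMP, Irf2bp2 (0.73) and Btg2 (0.73). Dusp6, an ERK phosphatase, had 0.72, Ccn1 0.71, Lrrc32 0.68 and 1700016P03Rik 0.67. The median over the other 16649 tested genes was 0.00 and their 99th percentile 0.445. For single members the nearest gene was another member in 8 of 10 cases, such as Egr2 for Fos (0.89), Nr4a1 for Junb (0.89) and for Arc (0.86), Egr2 for Egr1 (0.89), Egr1 for Egr4 (0.83) and Nr4a1 for Ier2 (0.84). The exceptions were Fosb, nearest to Wnt7a (0.81), and Npas4, nearest to Btg2 (0.78). These r are over libraries that share depth, dissection and marker content. The 7 olfactory bulb markers had a median r of 0.29 with the members' mean and the 12 striatal markers of -0.00.

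The same comparisons were read for 47 tested genes of a list of 48 other early genes. In WT fluoxetine mice 12 of the 47 were called lower in males and 1 higher, where 5.05% of all genes were lower and 5.53% higher, with a median of -0.16 against 0.00 over all genes tested. They included Klf10 (-0.88 ± 0.18), Nr4a3 (-0.92 ± 0.20), a close relative of Nr4a1, Dusp1 (-0.93 ± 0.21) and Gadd45b (-0.53 ± 0.12), with limma adjusted p of 0.00285 to 0.00543. Between lithium and fluoxetine in males 16 were called higher under lithium and 1 lower (median 0.14), where 4.72% of all genes were higher and 5.17% lower, with Gadd45b (0.56), Dusp6 (0.57), Dusp1 (0.77) and Plk3 (0.55) the first by p. Over both sexes 11 were called higher and none lower, where 2.41% of all genes were higher and 2.26% lower, with Dusp6 at 0.46 ± 0.07 (limma adjusted p = 1.99e-05). Fluoxetine against vehicle called 3 of the 47 lower, Arl4d (-0.21), Fbxo33 (-0.16) and Rgs2 (-0.20), beside 3.07% of all genes, and HT against WT under vehicle called none, beside 0.762%. The lists below are read against the same shares of all genes.

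Genes that activity induces later, 30 of 30 tested, split. In WT fluoxetine mice 4 of the 30 were called higher in males and 3 lower, beside 5.53% and 5.05% of all genes: Acan, the core protein of perineuronal nets, was 1.33 ± 0.23 and Inhba, a subunit of activin, 0.75 ± 0.18 higher, while Bmp3 (-0.45) and Nptx1 (-0.43) were lower. Over both sexes and genotypes 5 of the 30 were called higher under lithium than under fluoxetine and none lower, beside 2.41% and 2.26% of all genes. These included the neurotrophin gene Bdnf (0.35 ± 0.07), Vgf (0.26), Pcsk1 (0.22) and Inhba (0.37), with limma adjusted p of 0.000814 to 0.0108. In males alone 6 were called higher and 1 lower, the latter Acan (-0.88), beside 4.72% and 5.17% of all genes.

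Genes upstream of the early genes were 39 calcium and ERK signalling genes and transcription factors. In WT fluoxetine mice, beside 5.53% of all genes higher and 5.05% lower, 1 of the 39 was called higher in males, Mrtfa (0.25), a coactivator of SRF, and 2 lower, Ppp3ca (-0.20), the calcineurin catalytic subunit, and Prkacb (-0.19), a catalytic subunit of protein kinase A. Between lithium and fluoxetine in males 3 of the 39 were called higher and 4 lower, beside 4.72% and 5.17% of all genes, with Mapk3, which encodes ERK1, at -0.27 and Rps6ka3 at 0.25. Under vehicle Mef2c was called higher in HT mice (0.30 ± 0.07, limma adjusted p = 0.023), as was Syt4 (0.22 ± 0.05, limma adjusted p = 0.0134) of the later list, where 0.528% of all genes were called higher.

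Of 14 targets of the glucocorticoid receptor, 5 were called higher and 1 lower in males in WT fluoxetine mice (median 0.32), beside 5.53% and 5.05% of all genes. The 5 higher included Fkbp5 (1.32 ± 0.28), Hif3a (1.47 ± 0.38), Zbtb16 (0.85 ± 0.22) and the cell cycle inhibitor Cdkn1a (0.82 ± 0.15), with limma adjusted p of 0.000644 to 0.0114. Under lithium against fluoxetine 8 of 14 were called lower in males and none higher (median -0.38), beside 5.17% of all genes lower, with Fkbp5 at -1.01 and Sult1a1 at -1.13, and 6 of 14 over both sexes, beside 2.26%, with Plekhf1 at -0.53 and Mt1 at -0.35. Over the 57 libraries, with group means subtracted, these 14 genes had a median r of -0.42 with the members' mean, from -0.66 to 0.32 (Errfi1), and the 47 other early genes one of 0.35. The lists were drawn up with earlier results of these data known, so their direction is a description.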

How the data were processed

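Libraries of poly(A) RNA were made with the TruSeq Stranded mRNA kit, per the labels' protocols. The deposited table holds a signal that is never negative per gene and library, namely estimated counts normalized by the authors; Salmon 0.11.2, R 3.6.0, DESeq2 1.19.11 and GRCm38 are named in the submitters' processing notes. Its annotation release, filters and strand setting: not given in the sources used here. Low values of each library were divided by its commonest low value, and between 4.08% and 28.5% of the results were whole (tolerance 0.01). Reads could therefore not be recovered and no count model was used. The read depth behind each value is unknown.

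From these values log2(value + 1) was taken for genes with a mean of at least 10, and limma 3.58.1 (R 4.3.3, trend and robust) was fitted to the 12 groups of genotype, drug and sex, with contrasts for each comparison and Benjamini-Hochberg adjustment over all 16659 genes (called under 0.05). Groups came from the sample titles. Spread was tested by the same fit on absolute deviations from group means. In simulated data that test made more false calls than its threshold allows, so SDs are given first. Correlations used values with group means subtracted and 100000 permutations within groups (Python 3.11.15, numpy 2.4.6, scipy 1.17.1, pandas 2.3.3). Promoter windows and motifs came from RefSeq (GRCm38.p6), gene positions from the GENCODE annotation of GRCm38.

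All 10 members are named. From each companion list the members with the smallest adjusted p, up to 4 in a comparison, are named, and by likeness the 10 other genes with the highest r and the nearest gene of each member. The members and lists were chosen with earlier results of these data known. Alternatives changed the scaling (trimmed mean of M values, TMM), pseudocount, filter, fit, weights and covariates, and left out each library in turn. The comparisons within a sex or arm, those of one such difference with another, the spread comparisons within a genotype the olfactory covariate, and the length trend for spread and pairs were chosen after seeing the data.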

Additional observations from a re-analysis of the deposited data

Results flagged for a closer look

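Among the 120 groups of values (10 genes in 12 groups), 11 held a library past Dixon's 95% value. In each, the gap from that library to its nearest neighbour took up most of the group's range. For independent, normally distributed values chance gives about 1 in 20. The 10 genes vary together over the same libraries and the counts were not put on a log scale, so that share is a rough guide only. The share over all tested genes was not computed. Arc stood out in HT fluoxetine male 5, at 5293 normalized counts where the next male had 2037, and in WT fluoxetine male 2, at 3357 above 1797. HT lithium female 5 was highest for 3 genes, Egr2 (561, next 423), Nr4a1 (3287, next 2155) and Ier2 (257, next 185). WT vehicle male 4 was lowest for Fosb (334, next 641) and Egr2 (219, next 356). Fos was highest in WT vehicle female 1 (2400, next 1051), Egr1 in HT vehicle male 4 (8411, next 6583) and Nr4a1 in HT vehicle female 1 (2754, next 1948). Junb was lowest in WT fluoxetine female 5 (1510, next 1807).

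A test of the difference itself found 4 effects that differed between groups, by limma adjusted p. These comparisons were added after the values had been seen. All 4 take in the same 5 WT fluoxetine males, so they are not independent of each other. Each was lost under some of the settings given below. The fluoxetine effect on Junb in WT mice was -1.11 in males minus females (adjusted p = 0.044). The lithium minus fluoxetine difference was larger in males than in females for Junb (by 0.90, adjusted p = 0.0249) and Arc (by 1.38, adjusted p = 0.0303). The sex difference of Junb under fluoxetine was -1.09 in WT minus HT mice (adjusted p = 0.0445).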

How the results depend on the processing

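Single-gene differences were followed through the alternatives for the 10 members in a chosen part of the comparisons only. Of these 80 differences 23 were called, and 11 of the 23 were never lost under any alternative run. Most of the 23 came from comparisons added after the values had been seen. The matching share over all genes was not computed, so these counts are not general rates. Junb in WT fluoxetine males against females kept its call under 14 other settings and 10 omissions of a library. TMM scaling moved the median of all genes by at most 0.0096. Read depth is unknown, so counting error cannot be separated from spread between mice.

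Counts of called members changed as follows, and the cause was not tested. The share of all genes called is not set beside the counts under other settings or with a library left out, here or above. Such a count alone does not tell a change in the members from a change over all genes. Fluoxetine against vehicle over both genotypes (1 as reported) gave 0 with no filter, with 6 arms and a sex term, and with the replicate block, 2 without robust moderation or with both marker covariates, 3 with the olfactory covariate and 4 with the length trend. Lithium against fluoxetine (4) gave 7 with library weights. Lithium against vehicle (0) gave 2 in HT mice and 1 over both genotypes when only the groups compared were fitted.

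Males against females in WT fluoxetine mice (7) gave 3 with the striatal covariate, 5 with the olfactory covariate (Egr1, Egr2 and Egr4 lost, Ier2 gained) and 1 with both. Fluoxetine in WT males (3) gave 0 with library weights or only the groups compared, 5 with the olfactory covariate, 1 with both and 6 with the length trend. Over both genotypes in males (3) it gave 5, 5 and 6 under the last 3. The difference of the fluoxetine effect between WT sexes (1) gave 0 with no filter, library weights, the replicate block, each covariate, both, or only the groups compared, and 2 with the length trend. The difference of lithium against fluoxetine between sexes (2) gave 1 with no filter or the olfactory covariate, 8 with library weights and 0 with the striatal covariate or both. The sex difference in WT minus HT (1) gave 0 with no filter, the replicate block, each covariate, both, the length trend, or only the groups compared. Every count of spread calls (3, 1 and 1) gave 0 with deviations from group medians or the length trend, and both under fluoxetine gave 0 with the replicate block.

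Directions reversed for Egr2, HT against WT under vehicle (0.00256 with library weights), and Fosb, WT fluoxetine males against females (0.0707 with the striatal covariate, 0.102 with the length trend, -0.125 to 0.0868 with single libraries left out, above 0 without WT fluoxetine female 1, female 3, male 3 or male 5). Under the length trend lithium in HT mice reversed for Fos (-0.200), Fosb (-0.0360), Junb (-0.155), Nr4a1 (-0.120) and Npas4 (-0.0253).

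With each library left out in turn, counts ranged from 0 to 2 for fluoxetine over both genotypes, 0 to 1 for fluoxetine in WT mice (1 without WT fluoxetine male 2, WT vehicle male 3 or male 4), 0 to 1 for lithium over both genotypes (1 without WT lithium male 5), 3 to 5 for lithium against fluoxetine, and 5 to 7 for males against females in WT fluoxetine mice. They ranged from 0 to 5 for fluoxetine in WT males, 1 to 6 in males of both genotypes, 0 to 2 for its difference between WT sexes, 0 to 6 for lithium against fluoxetine between sexes and 0 to 3 for the sex difference in WT minus HT. Spread counts ranged from 0 to 2 for fluoxetine, 0 to 5 for fluoxetine in HT mice and 0 to 2 for HT against WT under vehicle. The median r of pairs ranged from 0.678 to 0.723. All other counts of 0 stayed 0.

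Replicate numbers did not pair the libraries: same-numbered libraries had a median r of -0.0078, in 0 of 66 pairs of groups were all over 0.1, and 10 of 57 libraries were nearest to their own number. The block on that number changed only the counts given above.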
